A study of Callithrix jacchus with 8 samples.

Results

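The most abundant transcripts of 4 marmoset embryonic stem cell lines were described here. They were chosen by their measured level. All gene identifiers (IDs) were taken whose counts per 1000000 gene counts (CPM), averaged over 8 libraries, reached 500 or more. Of 32338 IDs, 252 fulfilled this (0.779%), and a symbol was available for 208 of them. Level and membership are therefore given as a description, without a test. All 252 also passed the minimum count for the tests of differential expression and made up 1.60% of the 15781 genes tested. CPM count reads and not molecules, and transcript lengths were not used. The order below is therefore an order of read numbers, in which long transcripts rank higher at the same number of molecules.

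The lines DPZcjESC1-4 were each derived from 1 preimplantation embryo of the common marmoset monkey, so that line and embryo cannot be told apart. DPZcjESC1 came from an early morula and was male with trisomies of 2 chromosomes (passages 46 and 51). DPZcjESC2 also came from an early morula and was female with trisomy of 1 chromosome (passages 36 and 37). DPZcjESC3 originated from a compacted morula and was female with a normal karyotype (passages 37 and 41). DPZcjESC4 was obtained from a blastocyst and was male with a normal karyotype (passages 30 and 33). All lines were cultured on irradiated mouse embryonic fibroblasts at low oxygen in medium with serum replacement, and none of the groups received a treatment. Each passage gave 1 RNA library, so that 2 libraries of a line differ in passage and in everything else that differed between the cultures. P-values therefore measure the spread between these libraries. The libraries held 10615123 to 12885444 gene counts. At 500 CPM this corresponds to at least 5308 counts, and the counting error of a member in 1 library had a median of 1.09%.

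Embryonic stem cells divide rapidly and spend much of their transcription on making and folding proteins. Primate lines of this kind grow as flat epithelial colonies that hold together by cadherins and attach to an extracellular matrix which they partly secrete themselves. Abundant transcripts of such cells include elongation factors and ribosomal proteins, chaperones of the cytosol and the endoplasmic reticulum (ER), RNA-binding proteins of the spliceosome, cytoskeletal proteins and matrix proteins such as fibronectin. Pluripotent cells also express the de novo DNA methyltransferase DNMT3B at a high level.

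Passage 46 of DPZcjESC1 stood apart from the other 7 libraries among the abundant transcripts. It held the lowest value of 84 members, more than any other library, and the highest of 44, whereas passage 37 of DPZcjESC3 held the highest of 67. Its TMM normalization factor shifted values by 0.14 on the log2 scale against CPM, compared with shifts between -0.07 and 0.04 in the others. Results that rest on this library are given with and without it. Of the markers fixed for the identity of the cells, 9 of pluripotent cells were found, and they were not all even. POU5F1, the core transcription factor of pluripotency, had 427 ± 58.2 CPM (mean ± SD, n = 8) and LIN28B, an RNA-binding protein of pluripotent cells, 747 ± 77.1 CPM. Together the 9 took 2054 CPM at passage 46 of DPZcjESC1 and up to 4625 CPM, at passage 41 of DPZcjESC3. NANOG and DNMT3B, given below, were uneven. The neural marker PAX6 stayed at 1.22 to 2.65 CPM and the endoderm marker AFP at 0 to 2.26 CPM. Other markers of differentiated cells were present and uneven. GATA6, of the endoderm, had 138 and 27.8 CPM in DPZcjESC1, 20.7 and 28.2 in DPZcjESC2, 20.4 and 32.6 in DPZcjESC3, and 163 and 109.6 in DPZcjESC4. The mesoderm markers TBXT and MIXL1 reached 129 and 40.0 CPM at passage 30 of DPZcjESC4, with 6.22 to 36.8 and 0.718 to 19.9 CPM in the other libraries. KRT7, listed as a trophoblast marker, ranged from 2.83 to 72.3 CPM and was highest at passage 37 of DPZcjESC3. The part of differentiated cells in the results below was not tested.

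Together the 252 transcripts received 21.5 ± 0.617% of the gene counts (SD, n = 8). The share was 21.9% and 21.0% at the earlier and later passage of DPZcjESC1, and 21.3% and 20.7% in DPZcjESC2. In DPZcjESC3 it was 22.7% and 21.8%, and in DPZcjESC4 21.5% at both. DPZcjESC1 overlapped with each other line. Both libraries of DPZcjESC3 lay above those of DPZcjESC4, which lay above those of DPZcjESC2. Line means reached from 20.97% to 22.24%, and later minus earlier passage from -0.970 to 0.0506 percentage points. No single transcript dominated a library. The highest ID took 0.352 to 0.548% of the counts and the highest 10 IDs together 2.52 to 3.23%. The highest 50 IDs of each library took 7.34 to 8.93%, and 1142 to 1311 IDs were needed for 50% of the counts. Among the members, 51 reached a mean of 1000 CPM and 7 a mean of 2000 CPM.

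**Figure D1:**
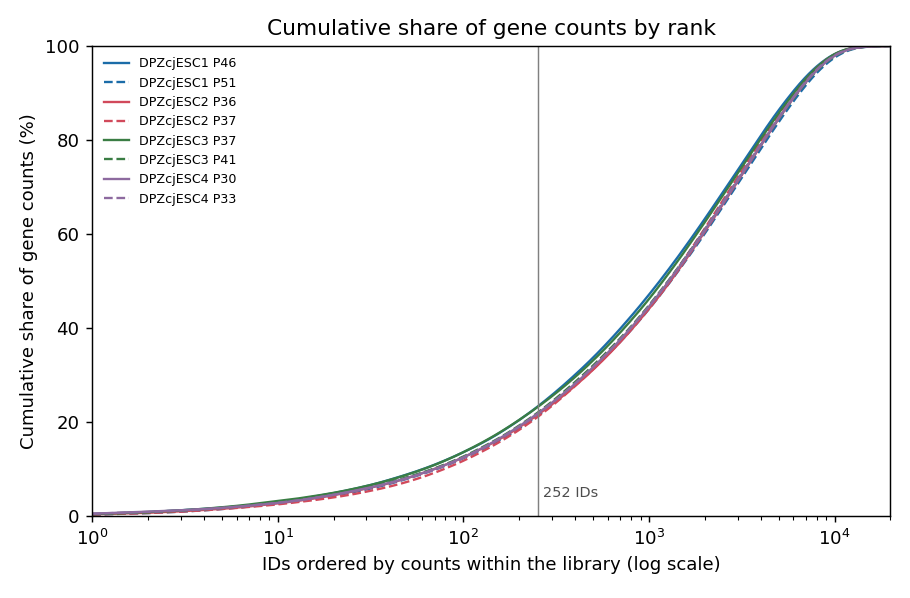
Cumulative share of gene counts (%, vertical axis) over the IDs of each library ordered by their counts (horizontal axis, log scale), with 1 line per library. The grey line marks 252 IDs. The curves lie close together, and the highest 100 IDs of a library hold 11.8 to 13.6% of its counts.

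EEF2, which moves the ribosome along the mRNA, had the highest mean level (4016 ± 453 CPM). Its values, earlier before later passage, were 4107 and 3574 CPM in DPZcjESC1, 4128 and 3373 in DPZcjESC2, 4815 and 3890.0 in DPZcjESC3, and 4379 and 3860.5 in DPZcjESC4. It ranked first or second in every library, and its value was lower at the later passage in all 4 lines, by less than the tests could call (log2 -0.31, adjusted p = 0.218). FN1, the adhesive matrix protein fibronectin, was next with 3764 ± 1460.4 CPM and varied far more. It had 4092 and 2269.7 CPM in DPZcjESC1, 2913 and 1379 in DPZcjESC2, 4292 and 4283 in DPZcjESC3, and 5479 and 5404 in DPZcjESC4. Both libraries of DPZcjESC4 were highest and both of DPZcjESC2 were among the lowest 3. Its rank lay between 1 and 18. HSP90B1, the HSP90 chaperone of the ER, had the most even level among the 20 highest transcripts. It had 2978 and 2976 CPM in DPZcjESC1, 3277 and 2976 in DPZcjESC2, 3247 and 2849 in DPZcjESC3, and 2904 and 2962 in DPZcjESC4, and ranks 2 to 5.

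The ER chaperones CALR (2658 ± 326 CPM) and HSPA5 (1767 ± 220.2 CPM) were also among the highest 20. CALR binds glycoproteins during folding and HSPA5 is the HSP70 protein of the ER. CALR had 1946 CPM at passage 46 of DPZcjESC1 and 2525 to 3087 CPM in the other libraries. HSP90AA1, the inducible cytosolic HSP90, had 1317 and 2878 CPM in DPZcjESC1, 2012 and 3521 in DPZcjESC2, 2879 and 2920.4 in DPZcjESC3, and 1928 and 2576 in DPZcjESC4. It was higher at the later passage in 3 lines and nearly level in DPZcjESC3, and its rank moved between 1 and 37. The translation factor EIF4G2 (1489 to 2124 CPM), the ribosomal stalk protein RPLP0 (1477 to 2229 CPM) and the splicing co-activator SRRM2 (1648 to 1936 CPM) varied by at most 1.51 times between the libraries.

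Among the secreted proteins in this range, IGFBP2, which binds insulin-like growth factors, had 2324 ± 259.8 CPM and FSTL1, a follistatin-like glycoprotein, 1676 ± 231 CPM. COL4A1, a chain of the basement membrane collagen, had 2373 and 1725 CPM in DPZcjESC1, 1301 and 1030.2 in DPZcjESC2, 1538 and 1927 in DPZcjESC3, and 2535 and 2515 in DPZcjESC4. As for FN1, both libraries of DPZcjESC4 were highest and that of passage 37 of DPZcjESC2 was lowest. DNMT3B and PRKDC, the catalytic subunit of DNA-dependent protein kinase, had means of 1578 ± 756 and 1498 ± 266 CPM. PEG3, an imprinted gene for a zinc finger protein, ranged from 1071 to 3318 CPM. It was highest in both lines that are female, with 2215 and 1396 CPM in DPZcjESC2 and 3318 and 1817 CPM in DPZcjESC3, against 1071 to 1328 CPM in the male lines. The groups did not overlap, but the difference was not called (log2 0.85, SE 0.26, adjusted p = 0.307).

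The remaining 5 of the 20 highest IDs had no symbol in the reference table. ENSCJAG00000007212 had 1945 to 3694 CPM and was higher at the later passage in each line. ENSCJAG00000018984 reached 3449 and 2424 CPM at the earlier passages of DPZcjESC3 and DPZcjESC2 and 1283 to 1816 CPM elsewhere. ENSCJAG00000018997 was the highest ID of all at passage 46 of DPZcjESC1 (4543 CPM), with 807 to 2421 CPM in the other libraries, and was lower at the later passage of each line. ENSCJAG00000015518 and ENSCJAG00000013062 had 1624 ± 329.9 and 1543 ± 284 CPM.

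**Figure D2:**
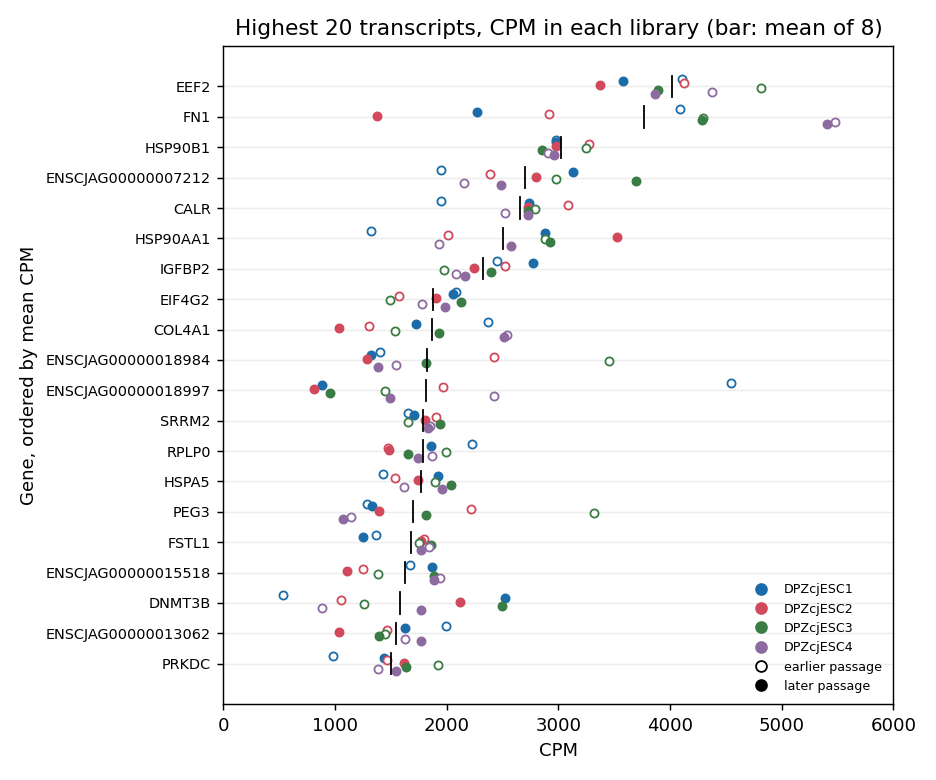
CPM (horizontal axis) of the 20 transcripts with the highest means (vertical axis), with 1 point per library, open for the earlier and filled for the later passage, coloured by line. Bars mark the mean of the 8 libraries. HSP90B1 points lie between 2849 and 3277 CPM, whereas those of FN1 reach from 1379 to 5479 CPM.

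The border of the list was gradual. HSPA8, the constitutive cytosolic HSP70, and LARS1, a leucyl-tRNA synthetase, lay just inside it with means of 502 and 501 CPM. WSB1 and EIF3B, both at 499 CPM, lay just outside. In a single library 241 to 274 IDs reached 500 CPM, 202 to 228 of them members. All 8 libraries were at 500 CPM or more for 147 members, and 22 members reached it in at most 4 libraries. Another 151 IDs reached it in at least 1 library without being members. Taken from the earlier passages alone, 244 IDs had a mean of 500 CPM, and from the later passages alone 256. These lists shared 214 IDs, 87.7% of the former and 83.6% of the latter.

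The ranking within the list was only partly constant. Spearman's rank correlation across the 252 members had a mean of 0.679 over the 28 pairs of libraries, with a range from 0.449 to 0.866. The members share the library, so that these values are a description. The mean was 0.684 for both passages of a line (4 pairs), 0.744 for libraries of different lines that were both earlier or both later (12 pairs), and 0.613 for the remaining pairs (12 pairs). The highest correlation was found between passage 51 of DPZcjESC1 and passage 41 of DPZcjESC3. Pairs with passage 46 of DPZcjESC1 had a mean of 0.545 and pairs without it 0.724. The former ranged from 0.449 to 0.774, and the highest, with passage 30 of DPZcjESC4, lay above the mean of all pairs. EEF2 and HSP90B1 were the only transcripts among the highest 5 of every library, and also the only ones among the highest 10, while 12 and 23 IDs reached these positions in at least 1 library. Of the highest 50, 22 IDs were shared by all libraries, out of 96 that occurred in any.

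The coefficient of variation (CV, SD over mean) across the 8 libraries had a median of 16.3% among members. It was 15.0% for tested genes of 100 to 500 CPM, 16.3% for 50 to 100 CPM and 21.1% for 10 to 50 CPM. The members were thus close to the next 2 classes and varied less than the lowest class. Without passage 46 of DPZcjESC1 the median was 14.1% among the members and 12.1%, 13.1% and 17.3% in these classes. The spread between the passages of a line had a median of 14.8% and that between line means 11.2%. Passage spread of that size alone would give the mean of 2 libraries a spread of 10.5%, if the changes were independent between lines. Changes shared by the lines add to the passage spread but not to that between line means. The members' changes correlated between lines with 0.169 to 0.663 over the 6 pairs, so that 10.5% is too high, and nothing is read from it. Every library was within 2-fold of every other for 186 members, and 14 members exceeded 4-fold. The passages of DPZcjESC1, 5 apart, differed most, with a median size of the log2 change of 0.35 and 29 members beyond 2-fold. In DPZcjESC2, with passages 1 apart, the median was 0.24 (10 members beyond 2-fold), in DPZcjESC3, 4 apart, 0.23 (9 members), and in DPZcjESC4, 3 apart, 0.15 (4 members). The change was therefore not ordered by the number of passages.

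The examples of constant and variable members in this paragraph were chosen after their values were seen. PDIA6, a disulfide isomerase of the ER, was the most constant member with 711 and 694 CPM in DPZcjESC1, 752 and 733 in DPZcjESC2, 734 and 672 in DPZcjESC3, and 701 and 702 in DPZcjESC4 (CV 3.65%). COL3A1, a chain of fibrillar collagen, covered the widest range (12.1-fold). It had 752 and 1851 CPM in DPZcjESC1, 404 and 153 in DPZcjESC2, 160.1 and 934 in DPZcjESC3, and 1054 and 484 in DPZcjESC4. The rank of COL3A1 among all IDs thus moved between 13 and 1647, with no order by line or passage. THBS1, a matricellular glycoprotein, had 2529.8 and 1040.0 CPM in DPZcjESC1, 588 and 496 in DPZcjESC2, 230.3 and 826 in DPZcjESC3, and 1789.6 and 459 in DPZcjESC4 (11.0-fold).

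Members that were highest at passage 46 of DPZcjESC1 were picked by their excess over the next library, after the values were seen. The 5 with the largest excess are given. CCN1, a secreted integrin ligand, had 1604 CPM at passage 46 of DPZcjESC1 and 251 to 454 CPM in the others. ITGA5, the fibronectin receptor subunit, had 1528 CPM there and 299 to 556 CPM elsewhere. The focal adhesion protein VCL (2209 against 398 to 907 CPM) and the actin-binding proteins TAGLN (2563 against 566 to 1106 CPM) and CALD1 (1511 against 365 to 654 CPM) had the same distribution. NES and ENSCJAG00000018997 followed. Since they were chosen for this excess, their wide range is a description. CCN1 and ITGA5 had means of 345 and 413 CPM without this library and belong to the list through it alone.

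By their known roles the 208 members with a symbol were sorted into 11 groups after the members were seen, so that the groups are a description. Translation was the largest of them with 25 transcripts and 2.37% of the gene counts, followed by extracellular matrix and secreted proteins (22 transcripts, 2.33%). Protein folding in the ER held 19 transcripts and 1.91%, RNA processing 24 and 1.88%, adhesion and cell surface 20 and 1.66%, and chromatin, DNA and cell cycle 20 and 1.64%. The 44 IDs without a symbol held 3.84%. The share of matrix and secreted proteins ranged from 1.57% at passage 37 of DPZcjESC2 to 2.89% at passage 30 of DPZcjESC4. That of translation reached only from 2.18 to 2.57%.

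The groups differed in how evenly their members were expressed. The median CV was 8.96% for the 5 nuclear transport proteins (such as the importins IPO5 and KPNB1), 10.8% for ER folding, 11.4% for cytosolic and mitochondrial chaperones and 11.6% for translation. It was 25.0% for the cytoskeleton, 25.1% for adhesion and 30.1% for matrix and secreted proteins. Leaving out passage 46 of DPZcjESC1 changed the last 3 values to 22.1%, 23.4% and 29.7%. Within each of these groups even members occurred beside variable ones. MYH10, a non-muscle myosin (889 ± 57.1 CPM, CV 6.43%), and CTNNA1, which links cadherins to actin (666 ± 43.2 CPM, CV 6.49%), were even. These examples were again chosen after seeing the values.

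**Figure D3:**
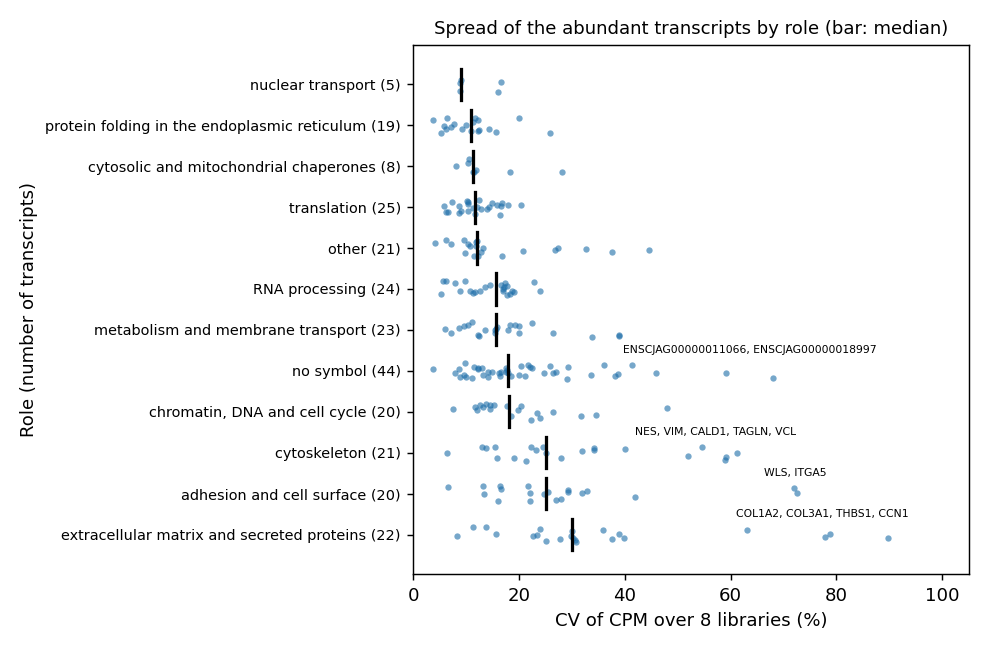
Coefficient of variation of the CPM over the 8 libraries (%, horizontal axis) for each of the 252 transcripts (points), by role (vertical axis, number of transcripts in parentheses). Bars mark the group medians, which reach from 8.96% for nuclear transport to 30.1% for matrix and secreted proteins, and transcripts above 50% are named.

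Lists of known housekeeping genes were only partly represented. Of 49 genes found by symbols of cytosolic ribosomal proteins, 7 were members, with RPLP0 (1790 CPM) and RPS3 (1226 CPM) highest. The 49 include the ribosomal protein-like genes RPL7L1, RPL22L1 and RPL3L (8.12, 77.6 and 1.86 CPM), which were not members. The 49 genes together took 11463 to 15440 CPM. Of 19 translation factors 8 were members, of 13 chaperones 8 and of 24 genes of chromatin and nuclear proteins 7, namely NCL and 6 HNRNP genes. Of 3 genes found of the cytoskeleton list, MYH9 and VIM were members. Of 7 glycolytic genes, ENO1, GPI, PGK1, PKM and TPI1 were members. GAPDH was not a member with 235 ± 24.6 CPM, and neither was ACTG1, a cytoplasmic actin, with 60.9 ± 11.1 CPM. Reads with several hits in the genome were not counted, and each library held 12693193 to 15347288 alignments with more than 1 hit beside 15128807 to 18765950 unique hits. The part of this in the low values of genes with processed copies was not tested. None of the mitochondrially encoded genes was found by symbol.

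Markers of fibroblasts were abundant. Of the 6 found, FN1, COL1A1, COL1A2 and COL3A1 were members, and DCN (333 ± 282 CPM) and POSTN (115 ± 145 CPM), which mark fibroblasts more specifically, were not. The 6 genes summed to 5009 to 9646 CPM in the libraries of earlier and 2394 to 8799 CPM in those of later passages. COL1A2 had 561 and 1433 CPM in DPZcjESC1, 479 and 214 in DPZcjESC2, 233 and 1142 in DPZcjESC3, and 1044 and 549 in DPZcjESC4, and was thus high and low in the same libraries as COL3A1. POSTN was also highest at passage 51 of DPZcjESC1 (438 CPM) and lowest at passage 37 of DPZcjESC2 (12.1 CPM). DCN did not follow them, with 898 and 201 CPM in DPZcjESC1, 563 and 446 in DPZcjESC4, and 82.6 to 179 CPM in DPZcjESC2 and DPZcjESC3. It was lower at passage 51 than at passage 46 of DPZcjESC1, as FN1 was. The feeder cells were of mouse origin, and whether reads from feeder or differentiated cells contributed to these counts was not tested. In cultures of this kind, fewer cells of a type and less RNA per cell cannot be told apart.

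Later and earlier passages were compared within the lines. Earlier and later give the order within a line and not a common passage number. Passage 37 was the later one in DPZcjESC2 and the earlier one in DPZcjESC3. Passage 46 of DPZcjESC1 counted as earlier, although the later passages of the other lines had lower numbers. Time in culture as such was thus not tested. Of the 252 members, 2 were called, ENSCJAG00000011066 as higher and WLS as lower at the later passage (edgeR quasi-likelihood test with the line as a block, adjusted p-value under 0.05 and at least 2-fold). This is 0.794% of the members beside 0.634% of all tested genes. Both reached the limit of 500 CPM only through the passages where they were high, since WLS had a mean of 192 CPM at the later and ENSCJAG00000011066 of 270.4 CPM at the earlier passages. The choice of members thus enters these shares and those for passage below, and nothing is read from them. Among all members, 21 had a mean below 500 CPM at the earlier and 17 at the later passages. Without the minimum of 2-fold, MDN1 was added, which gives 3 members (1.19%) beside 0.754% of all tested genes. An unadjusted p-value under 0.05 was found for 23 members with a higher and 47 with a lower level, together 27.8% beside 17.2%. DESeq2 called 27 members, 8 higher and 19 lower, and 5 with at least 2-fold change. For DESeq2, here and below, no share of all tested genes is given. Its numbers of calls cannot be set beside the edgeR shares, and nothing is read from them. A change of 2-fold was reached by 6 members (2.38% beside 7.48% of all tested genes).

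WLS, the carrier that brings WNT proteins to the cell surface, had 698 and 132 CPM in DPZcjESC1, 734 and 204 in DPZcjESC2, 1123 and 143 in DPZcjESC3, and 781 and 289 in DPZcjESC4. The values of the 4 later libraries (132 to 289 CPM) lay below those of all earlier ones (698 to 1123 CPM). The change was -2.23 on the log2 scale (SE 0.28, adjusted p = 0.0375). ENSCJAG00000011066, which had no symbol, went the other way with 196 and 798 CPM in DPZcjESC1, 339.7 and 614 in DPZcjESC2, 305 and 1084 in DPZcjESC3, and 240.5 and 660.1 in DPZcjESC4. The 4 later libraries were again separate from the earlier ones, with a change of 1.47 on the log2 scale (SE 0.18, adjusted p = 0.0375). MDN1, an ATPase needed for the maturation of the large ribosomal subunit, had 373 and 848 CPM in DPZcjESC1, 476 and 927 in DPZcjESC2, 592 and 1019 in DPZcjESC3, and 609 and 874 in DPZcjESC4, and rose by 0.79 on the log2 scale (SE 0.12, adjusted p = 0.049). All 3 calls were lost, as were all others among the members, when either library of DPZcjESC2 or of DPZcjESC3 was left out. Without either library of DPZcjESC1, ENSCJAG00000011066 and WLS were still called, and without either of DPZcjESC4 only WLS was.

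DNMT3B was among the largest changes without being called (log2 1.23, SE 0.21, adjusted p = 0.0531). It had 533 and 2521 CPM in DPZcjESC1, 1053 and 2119 in DPZcjESC2, 1259 and 2491 in DPZcjESC3, and 884 and 1766 in DPZcjESC4. Each later library was above each earlier one, and the rank of DNMT3B moved between 7 and 252. MFGE8, a secreted glycoprotein that binds integrins, had 925 and 472 CPM in DPZcjESC1, 1082 and 388 in DPZcjESC2, 1096 and 663 in DPZcjESC3, and 911 and 588 in DPZcjESC4 (log2 -1.02, adjusted p = 0.0502). Both were called by DESeq2, and by edgeR without a filter on low counts or without the line as a block (no minimum of 2-fold). EdgeR also called DNMT3B, below 2-fold, without DPZcjESC1 or either of its libraries, and MFGE8 with DESeq2 size factors. Beside these members, NANOG, a transcription factor of pluripotency that was not abundant, was the only gene of the lists and markers that was called. It had 34.9 and 148 CPM in DPZcjESC1, 39.6 and 151 in DPZcjESC2, 41.0 and 164 in DPZcjESC3, and 56.1 and 112 in DPZcjESC4 (log2 1.68, SE 0.18, adjusted p = 0.0375). The 9 pluripotency markers found, including DNMT3B, summed to 2054 to 3165 CPM in earlier and 3614 to 4625 CPM in later libraries. Of these sums DNMT3B alone held 533 to 1259 CPM in earlier and 1766 to 2521 CPM in later libraries. The separation of the sums is therefore not read as a shift of all markers. The part of these markers in the other passage differences was not tested.

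**Figure D4:**
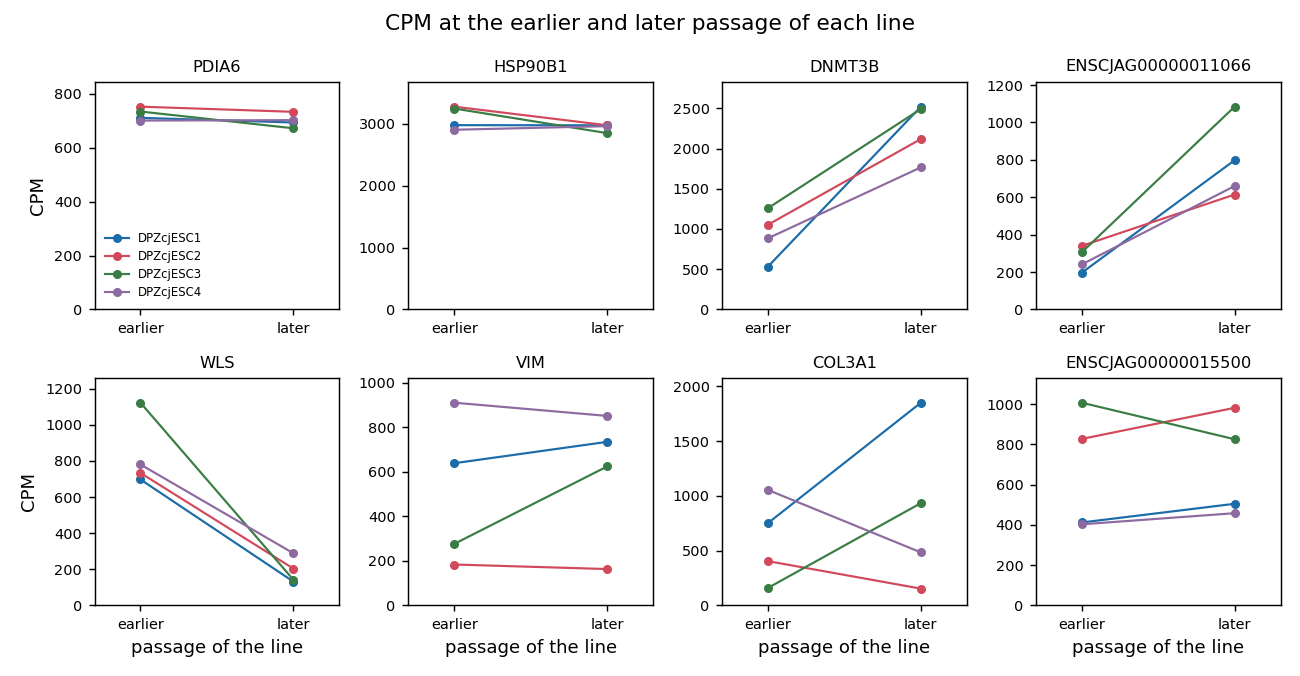
CPM (vertical axis, from 0) at the earlier and later passage of each line (horizontal axis), with 1 coloured line per cell line, for 8 abundant transcripts. PDIA6 and HSP90B1 stay level, DNMT3B and ENSCJAG00000011066 are higher and WLS lower at every later passage, and COL3A1 goes in both directions.

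With the called transcripts included, 25 members had all later libraries above all earlier ones (9.92%, beside 6.78% of all tested genes). For 20 they lay below (7.94% beside 3.44%). In CPM, 55 members were higher at the later passage in all 4 lines (21.8% beside 17.4%) and 51 were lower (20.2% beside 10.9%). After TMM scaling these numbers were 36 (14.3% beside 13.9%) and 55 (21.8% beside 13.9%). Members that reached 500 CPM only through the passages where they were high are among them, so that nothing is read from these shares. The median log2 change of the members was -0.039 beside -0.0042 for all tested genes, and 0.031 in CPM.

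The transcripts named by role in the following were chosen after their values were seen. Members that reached 500 CPM only through the passages where they were high also enter the counts and medians by role. No result is therefore read from these counts and medians. Adhesion and cell surface transcripts had the lowest median change by role (log2 -0.38). Of the 20, 11 were lower at the later passage in each line in CPM, 10 after TMM scaling, and none was higher in each line. Besides WLS these were the cadherins CDH1 and CDH3, the desmosomal protein DSP, the atypical cadherin FAT1, EPCAM, the phosphatase PTPRF, the cadherin-binding catenins CTNNB1 and CTNND1, APP and BSG. Among these, edgeR called only WLS, and DESeq2 called also PTPRF, DSP, FAT1, CDH1 and BSG. CDH1, which holds epithelial cells together, had 775 and 608 CPM in DPZcjESC1, 1685 and 1266 in DPZcjESC2, 1197 and 622 in DPZcjESC3, and 735 and 649 in DPZcjESC4 (log2 -0.54, SE 0.16, adjusted p = 0.146). Without DPZcjESC1 the median of the group was -0.23 after TMM scaling.

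Transcripts of chromatin, DNA and cell cycle had a median of 0.11, and 9 of 20 were higher at the later passage in each line, both in CPM and after TMM scaling. These included MYBL2, a transcription factor of the cell cycle, HELLS, a chromatin remodeller that takes part in DNA methylation, TRIM28, PARP1, XRCC5, CHD4, PSIP1 and KDM5B beside DNMT3B. MYBL2 had 523 and 1229 CPM in DPZcjESC1, 779.7 and 1021 in DPZcjESC2, 920.1 and 1693 in DPZcjESC3, and 840.2 and 1235 in DPZcjESC4 (log2 0.69, adjusted p = 0.0666), and HELLS 302 and 759.6 CPM in DPZcjESC1, 361 and 606 in DPZcjESC2, 492 and 697 in DPZcjESC3, and 386 and 592 in DPZcjESC4 (log2 0.73, adjusted p = 0.0644). Neither passed the main edgeR test. Both were called by DESeq2 and by edgeR without a filter on low counts, and nothing is read from these calls. HELLS lay below 500 CPM at every earlier passage and was a member only through the later ones. RNA processing had 8 of 24 members higher in each line in CPM and 5 after TMM scaling, with a median of 0.077.

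The median of the cytoskeleton group was -0.28, but without DPZcjESC1 it was 0.0029. TPM1, a tropomyosin (1099 ± 340.5 and 628 ± 120.1 CPM at earlier and later passages, SD, n = 4), and EZR, which anchors actin to the plasma membrane (967 ± 135 and 548 ± 144 CPM), were lower in each line without being called (adjusted p = 0.101 and 0.0983). IQGAP1, a scaffold protein of the actin cortex, was higher in each (log2 0.49, adjusted p = 0.15). For translation the median was -0.16 (-0.089 in CPM and -0.098 without DPZcjESC1), with 7 of 25 lower in each line, among them RPL13A, RPL18, RPS16 and RPLP2. The medians of ER folding (-0.032 after TMM scaling, 0.037 in CPM), of the group without a symbol (0.0036 and 0.073) and of nuclear transport (-0.047 and 0.023) lay near 0, and those of the first and the last differed in sign between the scalings.

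**Figure D5:**
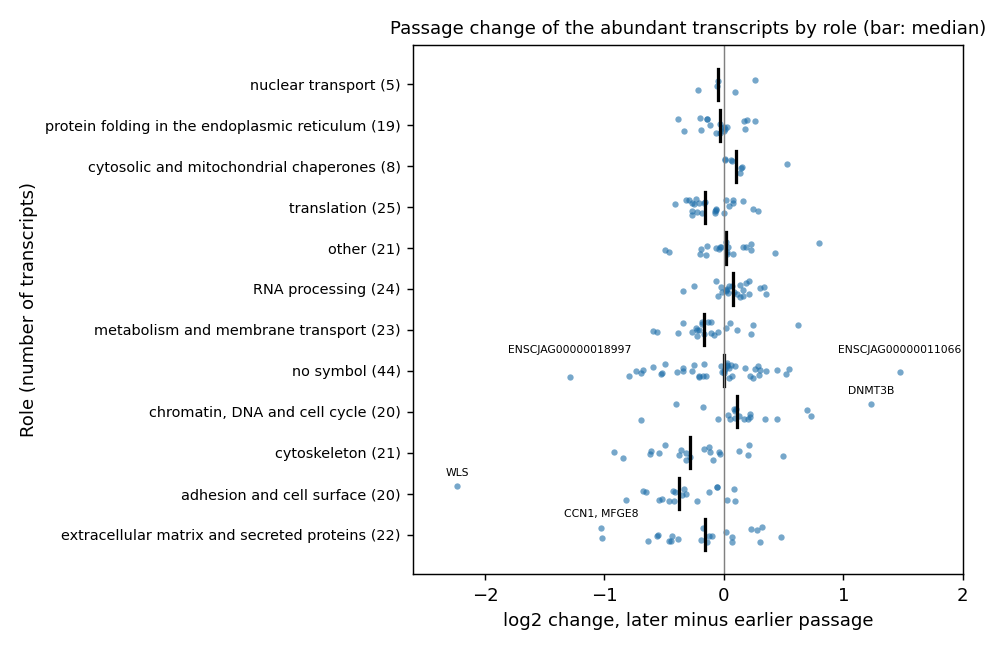
Change between later and earlier passage (log2, edgeR after TMM scaling, horizontal axis) for each of the 252 transcripts (points) by role (vertical axis, number of transcripts in parentheses). Bars mark the group medians, from -0.38 for adhesion and cell surface to 0.11 for chromatin, and transcripts beyond 2-fold are named.

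Between the 4 lines no member was called by edgeR (0.165% of all tested genes were), while 16 members had an unadjusted p-value under 0.05 (6.35% beside 9.0%). DESeq2 called 6, for which no share of all tested genes is given. Of these, 4 had at least 2-fold change between the highest and lowest line, namely VIM, ENSCJAG00000015500, FBLN1 and COL4A1. At least 2-fold between line means was found for 22 members (8.73% beside 23.7%). VIM, the intermediate filament protein of mesenchymal and early embryonic cells, had the largest difference. It had 639 and 735 CPM in DPZcjESC1, 184 and 163 in DPZcjESC2, 276 and 624 in DPZcjESC3, and 911 and 851 in DPZcjESC4. Both libraries of DPZcjESC2 were lowest and both of DPZcjESC4 highest (log2 difference 2.34, adjusted p = 0.166).

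Between the 3 morula-derived lines and the blastocyst-derived line, edgeR and DESeq2 called no member (0.0697% of all tested genes were called by edgeR). An unadjusted p-value under 0.05 was found for 10 members (3.97% beside 4.4%). Values did not overlap, with the morula-derived lines higher, for 7 members (2.78% beside 3.02%) and, with them lower, for 16 members (6.35% beside 4.61%). No member reached 2-fold (4.75% of all tested genes did), and VIM had the largest difference with a log2 change of -0.99 (SE 0.55, adjusted p = 1.00). With 1 line on one side, origin and line cannot be told apart. Between the trisomic lines DPZcjESC1 and DPZcjESC2 and the euploid lines, both tools again called no member (0.0127% of all tested genes by edgeR), and 10 had an unadjusted p-value under 0.05 (3.97% beside 6.27%). Libraries of both groups did not overlap for 3 members that were higher (1.19% beside 2.36%) and 8 that were lower in the trisomic lines (3.17% beside 2.15%). Only CCN1 reached 2-fold (0.397% beside 3.54%, log2 1.11, SE 0.56, adjusted p = 0.828), and it was high at passage 46 of DPZcjESC1 only. Both trisomic lines came from early morulae and are listed with the same embryo donor, so that karyotype, stage and donor cannot be told apart.

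Between the female lines DPZcjESC2 and DPZcjESC3 and the male lines, edgeR called 1 member, ENSCJAG00000015500 (0.397% of the members beside 0.0317% of all tested genes). It had a mean of 445 CPM in the male lines and was thus a member only through the female lines, so that nothing is read from this share. This ID had 412 and 505 CPM in DPZcjESC1, 827 and 982 in DPZcjESC2, 1007 and 826 in DPZcjESC3, and 403 and 458 in DPZcjESC4. The female libraries (826 to 1007 CPM) lay above the male ones (403 to 505 CPM), with a log2 change of 1.02 (SE 0.13, adjusted p = 0.0482). Each library counted as a replicate in this test, although the lines are the units that differ in sex. A contrast of line means gave an adjusted p of 0.0753, and a block for earlier and later passages 0.0596. In all, 9 of 13 alternatives ended the call. An unadjusted p-value under 0.05 was found for 35 members (13.9% beside 11.5%), 18 higher and 17 lower. No overlap was seen for 10 members that were higher (3.97% beside 3.2%) and 6 that were lower in the female lines (2.38% beside 3.16%), and 5 members reached 2-fold (1.98% beside 8.06%). DESeq2 added SPTBN1, SPTAN1, COL4A2 and VIM, all lower in the female lines. SPTBN1 and SPTAN1 are the spectrin chains of the membrane skeleton. VIM had a log2 change of -1.35 (SE 0.38, adjusted p = 0.290 with edgeR and 0.0265 with DESeq2). With 163 to 624 CPM in the female lines, VIM reached a mean of 500 CPM only through the male lines, and nothing is read from its call.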

How the data were processed

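The authors deposited unnormalized read counts per Ensembl ID. They sequenced TruSeq libraries as single reads, aligned them to the Ensembl marmoset assembly with STAR 2.3.0e, and filtered and counted unique hits with SAMtools 0.1.18 and HTSeq 0.6.1p1. Here, 5 summary lines were removed (29.4 to 32.9% of unique hits lay outside genes) and CPM calculated. At these depths 3 counts equal 0.233 to 0.283 CPM, counting error only. Symbols were found for 12816 IDs.

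The tests took IDs that reached 10 counts in 2 libraries or more and were run with edgeR 4.0.16 under R 4.3.3 (TMM scaling, two-sided quasi-likelihood test, Benjamini-Hochberg adjustment over all tested genes). For origin, karyotype and sex each library counted as a replicate, although the libraries of a line are not independent. Standard errors were obtained from the change and the root of its F statistic. Alternatives were DESeq2 1.42.0, its size factors, other filters, blocks and fewer libraries. The scripts were tested on simulated data. The members, lists and role groups were chosen with earlier results of these data known. Named were the 20 members with the highest means, called members, those at the limit, and examples chosen after their values were seen. Most members are covered by counts and ranges only, and some are not reported here.

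The labels give line and passage, the study text gives sex, karyotype and origin. Between lines, the later-minus-earlier changes of all tested genes correlated with 0.182 to 0.478 over the 6 pairs, so that a block for earlier and later passages is given where it changed a call.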

Additional observations from a re-analysis of the deposited data

Results flagged for a closer look

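In 4 of 44 groups of values, a single library lay further from the others than Dixon's test allows at the 95% level. Chance flags about 1 in 20 such groups, or 2.2 here. ENSCJAG00000018997 had 4543 CPM at passage 46 of DPZcjESC1, with 807 to 2421 CPM in the other libraries. The cytoskeleton group took 2.29% of the gene counts of the same library and 1.32 to 1.70% in the others, and protein folding in the ER took 1.68% there and 1.87 to 2.02% elsewhere. The 44 IDs without a symbol took 4.34% at passage 37 of DPZcjESC3 and 3.63 to 3.93% in the other libraries.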

How the results depend on the processing

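Numbers of members called depended on the test and on single libraries. No share of all tested genes is given for these alternatives, so that nothing is read from the numbers except that they moved with the setting. Between the lines, 4 members were called with DESeq2 and 2 without a filter on low counts. Leaving out each library in turn gave 0 to 5, with 5 when passage 51 of DPZcjESC1 was left out. Between female and male lines, DESeq2 called 2, and DESeq2 size factors, a contrast of line means and passage order as a replicate block gave 0 each, with 0 to 2 when a library was left out. For later against earlier passages, DESeq2 called 5, no filter gave 5, and no replicate block gave 3. Leaving out single libraries gave 0 to 2. In an alternative chosen after seeing the data, leaving out a whole line gave 0 without DPZcjESC2, 0 without DPZcjESC3, 1 without DPZcjESC4 and 2 without DPZcjESC1. No member was called for origin or karyotype under any alternative run (0 to 0 without a library). The replicate block changed no other call.

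Requiring 500 CPM in every library left 147 members (249 to 254 by the mean when a library was left out), which took 15.4% of the gene counts. Of all unique hits the 252 members took 14.7% (of gene counts 21.4 to 21.7% when a library was left out and members were chosen anew). The mean rank correlation was 0.516 with Kendall's tau (Spearman 0.655 to 0.724 when a library was left out). The median spread was 0.24 as SD of log2 CPM (CV 14.1 to 17.2%). The mean CPM of each of the 20 highest transcripts moved by less than 1 SD in all 180 settings. None of these values and called changes reversed its direction. The median passage change of the members did, from -0.039 after TMM scaling to 0.031 in CPM, as did the medians of ER folding (-0.032 and 0.037) and nuclear transport (-0.047 and 0.023). That of the cytoskeleton went from -0.28 to 0.0029 without DPZcjESC1.

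With 1 library per passage, passage and culture cannot be told apart. Symbols came from a reference table, not from the deposited files, and its release was not compared with the annotation used for counting. Reads with several hits were not counted, which lowers genes with near-identical copies.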

Other observations

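The 23 abundant transcripts of metabolism and membrane transport took 1.61% of the gene counts and had a median CV of 15.5%. The transcripts named here were chosen after their values were seen. The glucose transporter SLC2A3 had 461 and 422 CPM in DPZcjESC1, 802 and 416 in DPZcjESC2, 1068 and 591 in DPZcjESC3, and 517 and 457 in DPZcjESC4, and the glycolytic enzyme GPI 385 and 527 CPM in DPZcjESC1, 721 and 502 in DPZcjESC2, 1040.4 and 635 in DPZcjESC3, and 501 and 504 in DPZcjESC4. Both were highest at the earlier passages of DPZcjESC3 and DPZcjESC2. PRDX1, a peroxidase, was higher at the later passage of each line without being called by edgeR, with 663 ± 107 and 1062 ± 64.4 CPM at the earlier and later passages (SD, n = 4, adjusted p = 0.0666). In contrast, the phosphate carrier SLC25A3 varied little (783 to 937 CPM).

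Among the 44 IDs without a symbol, the CV reached from 3.68% for ENSCJAG00000003062 to 68.1% for ENSCJAG00000018997. In CPM, later passages were higher in all 4 lines for 14 of them and lower for 11, and for 8 and 11 after TMM scaling. ENSCJAG00000011066, a member only through the later passages, is among them, so that nothing is read from these numbers.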
